A study of Mus musculus with 6 samples.

Results

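The induced pluripotent stem cell (iPSC) line numbered 3 was a control line, and it was 1 of 6 mouse RNA-sequencing libraries in a study that compared iPSC labelled palmitoylcarnitine (PC) with control iPSC and embryonic stem cells (ESC). It was taken by its label, because interferon and fibroblast genes had been seen to be low in it, and it is described here across all genes against the other 3 iPSC lines: control line 7, PC line 5 and PC line 13. Palmitoylcarnitine is the carnitine ester in which palmitate enters mitochondria, and its dose and timing, the reprogramming method and the strain of the lines are given in no label used here. The other libraries were 1 of ESC, titled B6, and 1 of mouse embryonic fibroblasts (MEF). All iPSC and ESC were grown in medium with leukemia inhibitory factor (LIF, 10 ng/ml) and 15% serum, on feeder cells, which were primary MEF stopped from dividing with mitomycin C. No label says whether feeder cells were removed before RNA extraction. The MEF library came from MEF grown in medium with 10% serum and is not labelled as the feeder cells. Line 3 has 1 library and was chosen for this very difference. Every value below is therefore a description with no test, and the spread over lines 7, 5 and 13 is given as the error. The labels do not say that the lines came from separate animals or cultures. In a bulk library, fewer cells of a type and less RNA per cell cannot be told apart.

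Interferons are secreted proteins that bind receptors on the cell surface and, through JAK kinases and STAT and IRF transcription factors, switch on a large set of antiviral genes. Many of these genes carry an interferon-stimulated response element (ISRE) near their start, where factors activated by interferon bind. Pluripotent cells are known to respond weakly to interferon, whereas fibroblasts respond strongly. Fibroblasts make the collagens, proteoglycans and glycoproteins of connective tissue. When they become contractile they also make smooth muscle actin and its partners, whose genes are known targets of serum response factor (SRF), which binds a sequence called the CArG box. Reprogramming to pluripotency normally silences the fibroblast programme.

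The promoters of 5 genes that the results turn on are shown first, from RefSeq on GRCm38.p6, each from 250 bases before to 50 bases after the gene's start, 5′ to 3′ on the gene's strand. Capitals mark matches to the ISRE letters GAAANNGAAA on either strand, and for Acta1 the match to the CArG box. Ifit1 (chr19:34640639-34640938, + strand), Isg15 (chr4:156200769-156201068, - strand) and Rsad2 (chr12:26456403-26456702, - strand) are antiviral genes that were low in line 3. Ifitm2 (chr7:140955912-140956211, - strand) is an antiviral gene that has a match and was not low. Its window is set on a start inside the gene as RefSeq lists it (chr7:140954837-140959686). Acta1 (chr8:123894726-123895025, - strand) is the skeletal muscle actin gene, which was among the lowest in line 3.
Ifit1: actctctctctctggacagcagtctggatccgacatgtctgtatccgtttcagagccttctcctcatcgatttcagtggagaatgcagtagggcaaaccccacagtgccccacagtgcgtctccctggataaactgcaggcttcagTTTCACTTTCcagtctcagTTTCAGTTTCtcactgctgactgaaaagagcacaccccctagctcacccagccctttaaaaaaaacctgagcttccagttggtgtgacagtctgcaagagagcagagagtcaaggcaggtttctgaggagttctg
Isg15: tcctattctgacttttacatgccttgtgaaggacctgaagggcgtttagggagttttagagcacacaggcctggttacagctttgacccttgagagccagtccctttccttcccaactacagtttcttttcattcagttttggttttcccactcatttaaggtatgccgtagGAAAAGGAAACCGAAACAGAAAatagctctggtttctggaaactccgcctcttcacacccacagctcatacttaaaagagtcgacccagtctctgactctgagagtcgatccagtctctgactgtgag
Rsad2: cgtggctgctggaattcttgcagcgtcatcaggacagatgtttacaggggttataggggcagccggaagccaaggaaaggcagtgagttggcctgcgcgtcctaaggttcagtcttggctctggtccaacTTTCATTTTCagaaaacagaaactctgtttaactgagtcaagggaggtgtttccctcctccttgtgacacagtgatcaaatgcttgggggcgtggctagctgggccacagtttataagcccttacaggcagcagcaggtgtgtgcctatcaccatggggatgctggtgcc
Ifitm2: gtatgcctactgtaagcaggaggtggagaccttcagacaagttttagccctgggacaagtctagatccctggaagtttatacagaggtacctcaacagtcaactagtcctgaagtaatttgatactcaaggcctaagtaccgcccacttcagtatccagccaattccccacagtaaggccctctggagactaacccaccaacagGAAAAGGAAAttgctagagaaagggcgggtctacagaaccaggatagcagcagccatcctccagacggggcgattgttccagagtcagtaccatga
Acta1: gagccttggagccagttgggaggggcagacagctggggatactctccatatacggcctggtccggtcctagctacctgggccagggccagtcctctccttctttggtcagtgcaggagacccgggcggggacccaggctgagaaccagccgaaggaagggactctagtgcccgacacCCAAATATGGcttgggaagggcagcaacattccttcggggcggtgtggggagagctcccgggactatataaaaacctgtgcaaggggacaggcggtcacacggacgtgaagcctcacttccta
Ifit1 has 2 ISRE matches, which start 104 and 85 bases before the gene's start. Isg15 has 3 that overlap one another, from 78 bases before it. Rsad2 has 1 at 120 bases and Ifitm2 has 1 at 46 bases before the start. The CArG box of Acta1 starts 73 bases before it.

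The 6 libraries held 26.51 to 27.99 M assigned reads, with 27.61 M in line 3, and at least 1 read for 16326 to 17463 genes. A count of 0 allows up to 3 reads, or 0.107 to 0.113 CPM (reads scaled to the library total), and floors and counting intervals cover counting error only. The pluripotency factor genes Pou5f1 and Nanog stood at 531 and 388 RPKM (reads scaled to gene length and library size) in line 3, against 487, 401 and 517 RPKM for Pou5f1 and 394, 473 and 401 RPKM for Nanog in lines 7, 5 and 13. The MEF library had high collagen levels, with Col1a2 at 1666 RPKM. Klf4 stood at 124 RPKM in it, above the 21.4 RPKM of ESC. The MEF library also held Pou5f1 at 158 and Sox2 at 88.2 RPKM while Nanog was at 0.05 RPKM and Zfp42 at 0. The macrophage gene Lyz2 had 463 RPKM in it. By Pou5f1, Sox2 and Lyz2, the MEF library did not match a pure fibroblast sample. Smooth muscle genes were low in it, with Acta2 at 32.6 RPKM.

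Line 3 differed from the other lines mostly by low genes. A gene was called lower (or higher) where line 3 was at least 1.5-fold below (or above) the mean of lines 7, 5 and 13 on the log2 scale of TMM-scaled CPM and lay outside their range. Of 13962 genes with a mean of at least 20 reads over the 4 lines, 1277 were lower (9.15%) and 274 were higher (1.96%). At 2-fold, 472 were lower (3.38%) and 47 were higher (0.337%). The median difference of all genes was 0.00, which the scaling sets near 0, so a difference is relative to the bulk of genes. The 1277 lower genes took 2.97% of the reads in line 3, against 5.65%, 6.26% and 5.17% in lines 7, 5 and 13. Each other line set in the same way against the remaining 3, with shared libraries, gave 210 lower (1.5%) and 296 higher genes (2.12%) for line 7, 536 lower (3.84%) and 1109 higher (7.94%) for line 5, and 471 lower (3.37%) and 339 higher (2.43%) for line 13. Among these 4 descriptions, line 3 had the most lower genes and line 5 the most higher genes.

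The lines were also compared by their distance over all tested genes. The root mean square log2 difference was 0.42 between lines 3 and 7, 0.54 between lines 3 and 5 and 0.44 between lines 3 and 13. It was 0.41 between lines 7 and 5, 0.46 between lines 5 and 13 and 0.30 between lines 7 and 13. Thus the 2 control lines, 3 and 7, were farther apart than control line 7 and PC line 13 by this measure.

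The share of lower genes was smaller at higher read depth: 22.1% of 2378 genes with a mean of 20 to 100 reads, 9.10% of 5968 with 100 to 1000 reads and 3.70% of 5616 with at least 1000 reads. The spread between lines 7, 5 and 13 was also widest for the shallow genes, with a median SD of 0.35 on the log2 scale for the first group, against 0.11 for the last. Interferon and fibroblast genes did not follow that pattern. For the interferon list the lower members were 7 of 11, 35 of 51 and 26 of 41 in the 3 groups from shallow to deep, and for the fibroblast list they were 4 of 12, 29 of 52 and 53 of 76. Genes just inside the 1.5-fold limit were Snai3, Fbxo36 and Mgat4b, each with a log2 difference of -0.59, and those just outside it were LOC100503280, Cdh3 and Scx, each with -0.58.

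**Figure D1:**
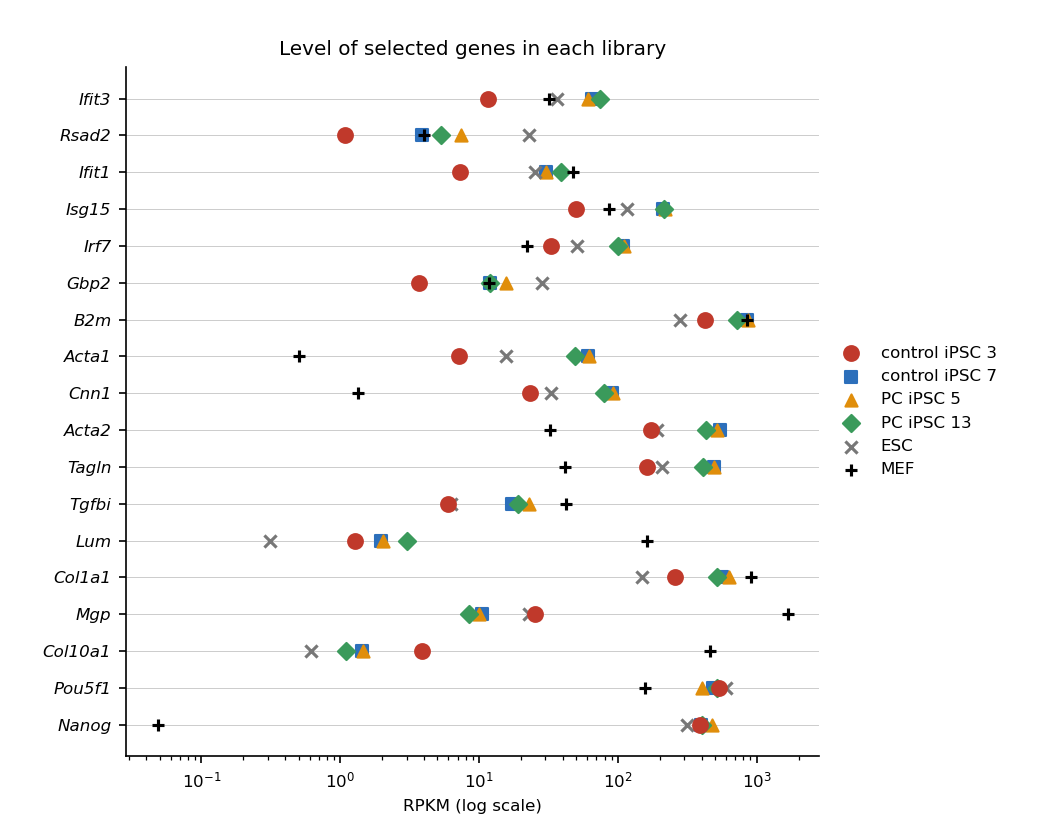
Level of 18 genes in each library, in RPKM on a log axis, with 1 point per library. For the interferon genes (Ifit3 to B2m) and the muscle and matrix genes (Acta1 to Col1a1) line 3 lies left of lines 7, 5 and 13, for Mgp and Col10a1 it lies right of them, and for Pou5f1 and Nanog the lines lie close together.

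Interferon-response genes were low in line 3 in nearly every functional class. Of 111 genes in the list, 105 were in the table and 103 had enough reads, with Ifnb1 and Ifi44l left out for low reads. Of these 103, 68 were lower (66.0%, against 9.15% of all genes) and 2 were higher (1.94%, against 1.96%). A difference below 0 was found for 91 of them, against 6878 of all 13962 genes. The median difference was -0.76 on the log2 scale, and it was -0.74, -0.85 and -0.69 when taken against lines 7, 5 and 13 one at a time, beside 0.00 for all genes. The summed level of the 105 genes was 2818 RPKM in line 3, against 4642, 4880 and 4408 RPKM in lines 7, 5 and 13. These genes were part of the reason for choosing the line, so their direction is no finding, and the sizes are what is described.

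The 6 genes with the largest differences were antiviral effectors, a class of which 33 of 41 were lower and 1 was higher, with a median of -0.82. The IFIT proteins bind viral RNA that lacks the cap marks of the host. Ifit3 had 11.5 RPKM in line 3, against 65.4, 60.4 and 74.5 RPKM in lines 7, 5 and 13, a log2 difference of -2.52 with an SD of 0.18 over those lines. Ifit2 had 2.12 RPKM, against 11.7, 11.9 and 12.7 RPKM. Ifit1 (chr19:34640889-34650009), whose promoter is printed above, had 7.23 RPKM in line 3, against 30.2, 30.2 and 38.9 RPKM in lines 7, 5 and 13 (log2 difference -2.18, SD 0.23). The 3 IFIT genes neighbour one another on chromosome 19, and in each of them line 3 was 4.53- to 5.75-fold below a group of lines that differed little among themselves.

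Rsad2 (chr12:26442743-26456452) encodes viperin, which makes a nucleotide that stops viral RNA synthesis. It had 1.08 RPKM in line 3, against 3.85, 7.43 and 5.3 RPKM in lines 7, 5 and 13, 22.8 RPKM in ESC and 3.99 RPKM in MEF. Its log2 difference was -2.28, and its SD of 0.45 was wider than that of the IFIT genes, since lines 7, 5 and 13 differed more among themselves. Isg15 encodes a ubiquitin-like protein that is attached to other proteins after infection. It had 49.6 RPKM in line 3, against 211, 217 and 215 RPKM in lines 7, 5 and 13, a 4.32-fold lower level with an SD of only 0.02 on the log2 scale. The chemokine gene Ccl5 had 2.06 RPKM in line 3, against 13.6, 14.5 and 12.2 RPKM, and its difference of -2.63 was the largest of the list.

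Other effectors were lower by less. Bst2, which encodes tetherin, a protein that holds budding viruses at the cell surface, had 408 RPKM in line 3, against 685, 711 and 671 RPKM in lines 7, 5 and 13. Ifitm3, which blocks virus entry, had 262 RPKM, against 403, 415 and 375 RPKM, and was just past the limit at -0.60. Its paralogues went other ways: Ifitm2 had 318 RPKM, against 305, 314 and 278 RPKM, and was not called, and Ifitm1, also known as a surface protein of germ cell precursors, was higher at 53.5 RPKM in line 3, against 33.6, 42.8 and 24.7 RPKM. Adar, the RNA-editing enzyme, is also made without interferon and had 21.9 RPKM in line 3, against 21.2, 21.5 and 21.6 RPKM, the smallest difference of the class. Apol9b and Ifi205, which were not in the list and are known as interferon-induced in mice, were among the 12 leading lower genes. Apol9b had 1.26 RPKM in line 3, against 5.11, 6.37 and 5.34 RPKM, and Ifi205 had 1.3 RPKM, against 5.8, 5.7 and 5.84 RPKM.

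The guanylate-binding proteins and immunity-related GTPases attack the membranes around intracellular pathogens and are known as targets of interferon gamma in particular. All 13 of those tested were lower, with a median of -1.26. Their summed level was 71.7 RPKM in line 3, against 168, 191 and 169.8 RPKM in lines 7, 5 and 13. Gbp3 had 2.58 RPKM, against 10.3, 12.8 and 10 RPKM, and Gbp2 had 3.69 RPKM, against 11.9, 15.5 and 12 RPKM. Irgm1, a regulator of the family, had the highest level at 39.9 RPKM in line 3, against 87.6, 86.8 and 90 RPKM, and Igtp had 10.9 RPKM, against 22.9, 34.1 and 22.8 RPKM. Line 3 was below the range of the other lines for each of these genes, but the GBP genes are near-identical copies in places, and reads could be split among them.

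Antigen presentation genes carry peptides to the cell surface for T cells. Of 16 tested, 9 were lower, and the median was -0.68. B2m, the shared light chain of class I molecules, had 422 RPKM in line 3, against 851, 858 and 722 RPKM in lines 7, 5 and 13. The class I heavy chain genes H2-K1 and H2-D1 had 110.3 and 128 RPKM, against 204, 198 and 187 RPKM for H2-K1 and 208, 225 and 178 RPKM for H2-D1. Tapbp, which helps load peptides, had 43.3 RPKM, against 62.6, 59.8 and 63.7 RPKM, and was not called. For B2m, H2-K1 and H2-D1 the line 3 level lay nearer to that of ESC, which was 279.8, 124 and 121 RPKM in that order of genes. The class as a whole did not share this. ESC was above line 3 for 13 of the 16 genes, against 6307 of all 13962 tested genes. The median of line 3 minus ESC was -0.85 for the class, against -0.20 for the mean of lines 7, 5 and 13 minus ESC.

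Most sensors of viral nucleic acid were low in line 3. Of 12 tested, 8 were lower and 11 had a difference below 0, with a median of -0.86. Ddx58, which encodes the RNA sensor RIG-I, had 12.5 RPKM in line 3, against 20.4, 25.4 and 22.2 RPKM, and Zbp1, a sensor of left-handed nucleic acid, had 8.53 RPKM, against 17.9, 22.9 and 17.9 RPKM. Trim25 and Eif2ak2 were not called: Trim25, an activator of RIG-I, had 81.8 RPKM, against 83.3, 108 and 79 RPKM, and Eif2ak2, the kinase PKR, had 19.6 RPKM, against 23, 22.7 and 24.3 RPKM.

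Receptors and signalling genes differed less than the genes they act on. Of 6 ligand and receptor genes tested, 1 was lower (Ifngr2) and the median was -0.32. Ifnar1 and Ifnar2, the receptor chains for type I interferon, had 7.64 and 7.85 RPKM in line 3, against 6.82, 7.52 and 6.92 RPKM for Ifnar1 and 10.5, 10.3 and 8.27 RPKM for Ifnar2. Ifngr2, a chain of the interferon gamma receptor, had 7.91 RPKM, against 14.2, 13.3 and 14.8 RPKM. The interferon gene Ifnb1 fell under the read filter, with 1 read in line 3, against 4, 4 and 11 reads in lines 7, 5 and 13. Of 15 signalling and transcription factor genes, 4 were lower, among them Irf7, Socs1 and Ikbke, and 1 was higher (Irf8), and the median was -0.23. Irf7, the factor that amplifies interferon production and is itself interferon-induced, had 32.7 RPKM in line 3, against 108, 111 and 99.4 RPKM, a 3.24-fold lower level with an SD of 0.07 on the log2 scale. Stat2 had 29.9 RPKM, against 38, 36.6 and 42.8 RPKM, and Jak1, the receptor kinase, had 18.9 RPKM, against 21.2, 23.2 and 20.3 RPKM, and neither was called. Irf8 was at 0.459 RPKM or less in each of the 4 lines.

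Compared with ESC, line 3 was the low one. The ESC library was above line 3 for 85 of the 103 interferon genes, against 6307 of all 13962 tested genes. The median of line 3 minus ESC was -0.85, against -0.07 for the mean of lines 7, 5 and 13 minus ESC. For all tested genes the medians were 0.06 and 0.08. The summed level in ESC was 4354 RPKM, just below the lowest of lines 7, 5 and 13. The ESC and MEF ratios rest on deposited RPKM with 0.1 added, and on 1 library each.

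**Figure D2:**
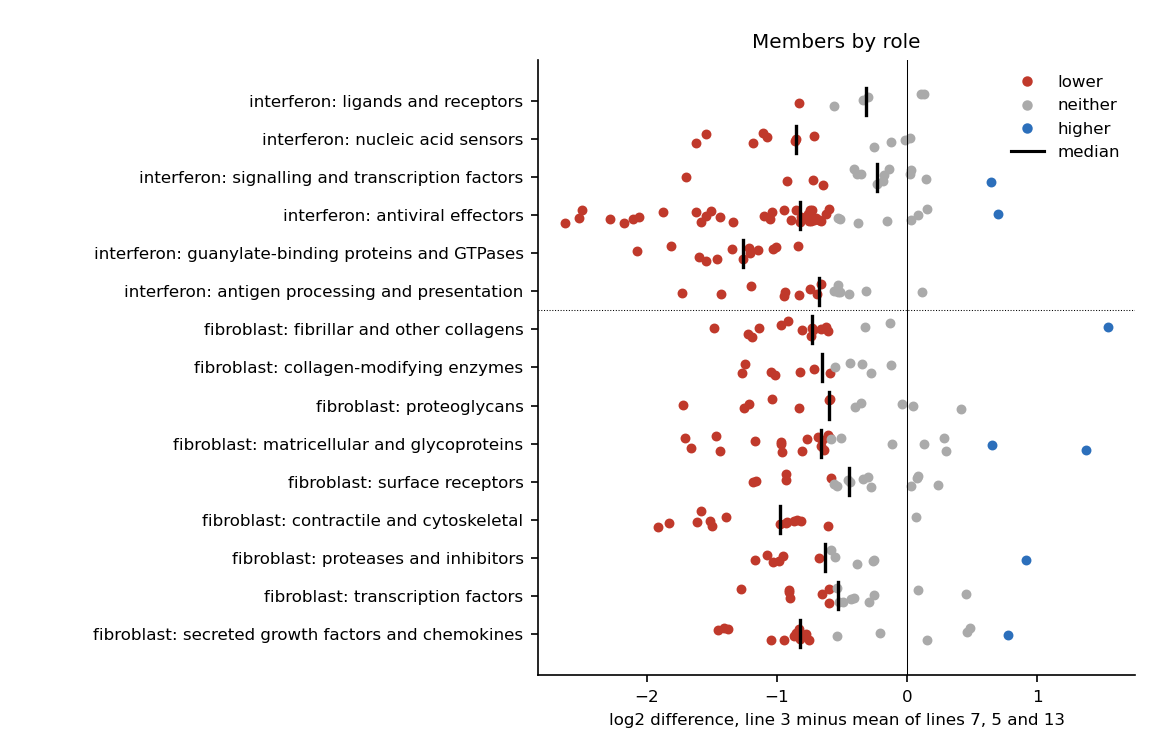
Log2 difference of line 3 from the mean of lines 7, 5 and 13 for each tested member of the interferon and fibroblast lists, by role, with 1 point per gene and a black bar at the median. Red points were called lower, blue points higher and grey points neither; the guanylate-binding proteins (13 of 13) and the contractile genes (14 of 15) have nearly all points in red.

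Promoters with an ISRE were more frequent among lower genes, which include the interferon genes the line was chosen for. Matches to GAAANNGAAA on either strand were in 3.44% of 32851 RefSeq promoters of this length, in 3.62% of the 11067 tested genes with a promoter, in 8.38% of 955 lower genes and in 3.81% of 210 higher genes. Within the interferon list, 78 tested members had a promoter, and 31 of them had a match. Of those 31, 25 were lower, with a median of -1.14, against 25 of the 47 without a match, with a median of -0.66. The GTPase class had matches in 8 of 9 promoters. Ifitm2, printed above, has a match and was not low. The CArG box was in 1.63% of all promoters and in 2.93% of the promoters of lower genes (28 of 955). It was in 1 of 11 contractile and 2 of 94 fibroblast list promoters (2.13%, against 1.52% of all tested genes with a promoter). A match is a description of letters in this window, and no match says nothing of the factor.

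Fibroblast genes were low in line 3 as well, with a median below 0 in every class. All 149 genes of the list were in the table, and 140 had enough reads. The 9 left out for low reads were Thbs4, Eln, Mmp3, Tcf21, Foxf2, Meox1, Meox2, Ccl11 and Cxcl1. Of the 140, 86 were lower (61.4%, against 9.15% of all genes) and 5 were higher (3.57%, against 1.96%). A difference below 0 was found for 120 of them, against 6878 of all 13962 genes. The median was -0.67, and -0.67, -0.77 and -0.63 against lines 7, 5 and 13 one at a time. The summed level was 6198 RPKM in line 3, against 10432, 11143 and 9119 RPKM in lines 7, 5 and 13, while it was 5453 RPKM in ESC and 30006 RPKM in MEF. As with the interferon genes, the line was chosen for this direction.

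The contractile and cytoskeletal genes were the class with the largest differences: 14 of 15 were lower, and the median was -0.98. Acta2, smooth muscle actin, had 174 RPKM in line 3, against 539.9, 517 and 429 RPKM in lines 7, 5 and 13 (log2 difference -1.50, SD 0.17). Tagln, an actin-binding protein of smooth muscle, had 162 RPKM, against 491, 489 and 411 RPKM. Cnn1, the smooth muscle calponin, had the largest difference of the class, -1.91, with 23.1 RPKM in line 3, against 90.1, 91.3 and 79.5 RPKM. In all of these genes line 3 stood apart and lines 7, 5 and 13 stood together, with line 13 the lowest of them. Vim, the intermediate filament vimentin, had 228 RPKM, against 396, 440.2 and 369 RPKM, and Lgals1, which encodes galectin-1, had 207 RPKM, against 409.6, 417 and 357 RPKM. Csrp2 was the member not called, at 92.1 RPKM in line 3, against 88.3, 95.1 and 81 RPKM.

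Acta1, skeletal muscle actin, was not in the list and had the second largest difference of the lower genes named. It had 7.19 RPKM in line 3, against 61, 62 and 48.8 RPKM in lines 7, 5 and 13, a 7.87-fold lower level, while ESC had 15.7 RPKM and MEF 0.5 RPKM. Foxs1, a forkhead factor known in pericytes, had the largest, -3.08, but on few reads: 6 in line 3, against 76, 57 and 62 in lines 7, 5 and 13. Prkcdbp, a caveolae coat protein also called cavin-3, had 4.55 RPKM in line 3, against 31.3, 30.3 and 27.3 RPKM, 7.36 RPKM in ESC and 143 RPKM in MEF. Line 3 was thus below ESC for Prkcdbp, Acta1 and Foxs1, of which Foxs1 had 1.72 RPKM in ESC and 0.166 RPKM in line 3. Other leading lower genes were Tuba3b, an alpha-tubulin gene, Krt20, an epithelial keratin gene, and Hspb7, a small heat shock gene of muscle that lay below the level limit for naming and was chosen after its values were seen. Tuba3b had 0.806 RPKM in line 3, against 3.6, 7.52 and 2.97 RPKM, Krt20 had 0.413 RPKM, against 1.45, 2.37 and 2.19 RPKM, and Hspb7 had 6 reads, against 38, 72 and 58 reads.

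The level of the contractile class in line 3 was close to that of ESC. The median of line 3 minus ESC was 0.03 on the log2 scale for these 15 genes, against 1.38 for the mean of lines 7, 5 and 13 minus ESC. Over the whole fibroblast list the same medians were 0.49 and 1.16, so line 3 was still above ESC there, by less than the other lines. ESC was above line 3 for 32 of the 140 genes, against 6307 of all 13962 tested genes. Acta2 had 174 RPKM in line 3 and 189.9 RPKM in ESC, and Tagln had 162 and 207 RPKM in that order of libraries.

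Collagens were lower for 13 of 16 members, with a median of -0.73. Col1a1 and Col1a2 encode the chains of type I collagen, the main fibre of connective tissue. Col1a1 had 258 RPKM in line 3, against 559, 635 and 516 RPKM in lines 7, 5 and 13, and Col1a2 had 136 RPKM, against 254, 284 and 233 RPKM. The type V chains, which set fibre width, were also lower: Col5a2 had 48.2 RPKM, against 116, 125 and 97.8 RPKM, and Col5a1 had 37.6 RPKM, against 71.7, 82.7 and 67.5 RPKM. For each of these 4 genes line 3 lay between ESC and the other lines. The 1 higher collagen was Col10a1, the collagen of cartilage cells before bone forms, at 3.9 RPKM in line 3, against 1.44, 1.45 and 1.1 RPKM, and 463 RPKM in MEF.

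Of 12 collagen-modifying enzyme genes, 7 were lower, with a median of -0.66. Lox and Loxl2, lysyl oxidases that cross-link collagen, had 83.6 and 45.2 RPKM in line 3, against 169, 183 and 165 RPKM for Lox and 106, 117 and 105 RPKM for Loxl2. Serpinh1, the collagen chaperone, had 165 RPKM, against 249.7, 272 and 208 RPKM, and was not called, nor was Pcolce, which helps trim procollagen, at 49.6 RPKM, against 60.3, 71.3 and 50.4 RPKM.

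Of 12 proteoglycan genes, 7 were lower, with a median of -0.60. Lum, lumican, which spaces collagen fibres in skin and cornea, had 1.27 RPKM in line 3, against 1.96, 2.03 and 3 RPKM in lines 7, 5 and 13, with 0.311 RPKM in ESC and 161 RPKM in MEF. Its difference of -0.83 had an SD of 0.35, mostly because line 13 was higher than lines 7 and 5. The related Ogn and Aspn had 7.81 and 3.65 RPKM, against 21.4, 17.6 and 15.8 RPKM for Ogn and 8.98, 6.84 and 6.92 RPKM for Aspn. Bgn, biglycan, had 128 RPKM, against 191, 205 and 186 RPKM. Vcan, the large proteoglycan versican, had 10.3 RPKM, against 9.65, 10.8 and 9.46 RPKM, and was not called.

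Of 24 matricellular and glycoprotein genes, 16 were lower and 2 were higher, with a median of -0.66. Tgfbi (chr13:56609586-56639359), an adhesive matrix protein induced by TGF-beta, had 5.98 RPKM in line 3, against 17.3, 22.9 and 19.13 RPKM in lines 7, 5 and 13, a log2 difference of -1.71 (SD 0.18). ESC had 6.26 RPKM, close to line 3. Thbs1, thrombospondin 1, had 410.2 RPKM, against 644, 722 and 579.6 RPKM, and Sparc, a collagen-binding protein, had 321 RPKM, against 541, 612 and 496 RPKM. Abundant members went without a call: Fn1, fibronectin, had 417 RPKM in line 3, against 389, 385 and 367 RPKM, and Spp1, osteopontin, had 811 RPKM, against 769, 773 and 497 RPKM. Fn1 and Spp1 were also high in ESC, at 306 and 839 RPKM. The 2 higher genes were Mgp and Efemp1.

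Surface receptor genes were lower for 5 of 16 members, the smallest share of any fibroblast class, with a median of -0.45. The 4 most abundant members of the class were all among the lower genes. Thy1, a surface antigen of fibroblasts, had 53.2 RPKM in line 3, against 102, 109 and 93.8 RPKM, and Cd248, endosialin, had 22.4 RPKM, against 49.3, 54.5 and 46.5 RPKM. The hyaluronan receptor gene Cd44 had 16.5 RPKM, against 31.2, 34.8 and 28.6 RPKM, and the receptor kinase gene Axl had 13.7 RPKM, against 31.4, 32.6 and 29.4 RPKM. Pdgfra, the growth factor receptor often used to mark fibroblasts, had 0.667 RPKM, against 0.758, 0.829 and 0.852 RPKM, was not called, and had 66 RPKM in MEF.

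Proteases and inhibitors were lower for 6 of 12 genes and higher for 1, Mmp13, with a median of -0.63. Mmp14, a membrane-bound collagenase, had 52.7 RPKM in line 3, against 110.3, 119.5 and 94.6 RPKM in lines 7, 5 and 13. The metalloproteinase inhibitors Timp1 and Timp2 had 85.5 and 91.7 RPKM, against 137, 148 and 126 RPKM for Timp1, which was lower, and 119.6, 125 and 114 RPKM for Timp2, which was not called. Among secreted factors, 11 of 17 were lower and 1 was higher, Cxcl12, with a median of -0.82. Ctgf and Cyr61, matrix-bound growth factors and known YAP targets, had 94.5 and 73.4 RPKM, against 246, 273 and 221 RPKM for Ctgf and 124, 151 and 107 RPKM for Cyr61. Ccl7, a monocyte chemokine, had 28.6 RPKM, against 55.4, 55 and 45.3 RPKM, and Csf1, the macrophage growth factor, had 15.9 RPKM, against 27.6, 28.6 and 24.5 RPKM. A separate list of serum and YAP response genes, which holds Axl, had 4 of 14 lower (28.6%, against 9.15% of all genes) and a median of -0.30. Ankrd1 had 12.7 RPKM in line 3, against 28.1, 30.3 and 18.7 RPKM, and Jun had 4.22 RPKM, against 6.9, 9.04 and 5.9 RPKM.

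Transcription factors of mesenchymal cells were lower for 7 of 16 members, with a median of -0.53. Zeb1, which represses epithelial genes, had 7.81 RPKM in line 3, against 13.4, 15.6 and 15 RPKM. Prrx2 and Prrx1, homeobox genes of mesenchyme, had 15.7 and 10.8 RPKM, against 24.7, 26.8 and 22.9 RPKM for Prrx2, which was lower, and 15.8, 16.4 and 13.4 RPKM for Prrx1, which was not called. Twist1 had 5.24 RPKM, against 7.55, 8.8 and 7.65 RPKM, just past the limit. Epithelial genes did not move the other way as a group: of 14 tested, 0 were lower and 1 was higher (7.14%, against 1.96% of all genes), and the median was 0.08. The higher one was Esrp1, a splicing factor, at 1.23 RPKM, against 0.827, 0.936 and 0.668 RPKM. Srf, the gene of the CArG box factor, had 10.7 RPKM, against 10.5, 12.2 and 11.3 RPKM.

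**Figure D3:**
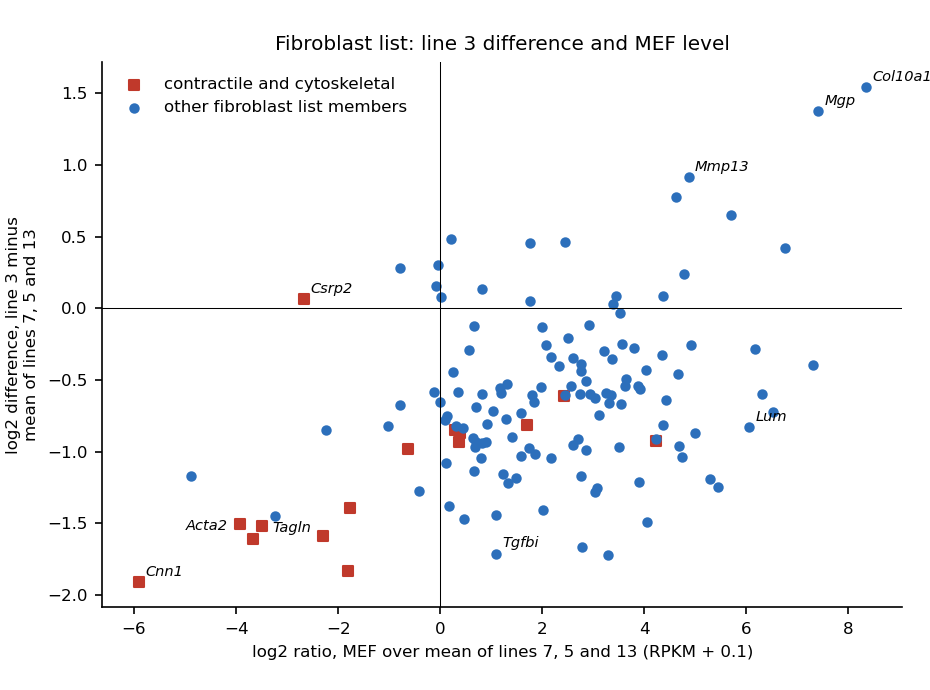
Log2 difference of line 3 for the 140 fibroblast list genes (vertical axis) against the log2 ratio of MEF to the mean of lines 7, 5 and 13 (horizontal axis, RPKM with 0.1 added), with 1 point per gene. Cnn1, Acta2 and Tagln lie low at the left, where MEF were below the iPSC lines, and Mgp and Col10a1 lie high at the far right.

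Low fibroblast genes were found both among genes that MEF had above the iPSC lines and among genes that MEF had below them. For the 117 members whose MEF level was above lines 7, 5 and 13, 69 were lower and the median was -0.63. For the 16 members whose MEF level was below all 3 lines, 14 were lower and the median was -1.33. Over all tested genes split in the same way, 707 of 5651 with MEF above were lower, with a median of -0.08. With MEF below, 486 of 7196 were lower, with a median of 0.05. Of the 16 list members with MEF below, 9 were in the contractile class described above, and 8 of these 9 were lower. The 5 members called higher were all above lines 7, 5 and 13 in MEF, but their MEF levels ranged widely. Among the higher ones, Mgp, matrix Gla protein, which keeps cartilage and vessels from calcifying, had 25.2 RPKM in line 3, against 10.5, 10 and 8.46 RPKM in lines 7, 5 and 13, a 2.59-fold higher level, and 1663 RPKM in MEF. Efemp1, a fibulin, had 6.3 RPKM, against 3.59, 3.93 and 4.5 RPKM and 214 RPKM in MEF, and Cxcl12, a chemokine for stem cells, had 2.82 RPKM, against 1.88, 1.69 and 1.4 RPKM and 43.2 RPKM in MEF. Mmp13, collagenase 3, had 0.569 RPKM, against 0.338, 0.391 and 0.179 RPKM and 11.7 RPKM in MEF. Bgn, Col1a2, Sparc and Vim, which were lower in line 3, had 1836, 1666, 1344 and 1298 RPKM in MEF.

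A set picked from ESC and MEF alone gave a smaller shift. In all, 363 genes had at least 10 RPKM in MEF and at least 20 times the ESC level, and 286 of them passed the read filter. Of these, 97 were lower (33.9%, against 9.15% of all genes) and 12 were higher, and the median was -0.41. Their summed level was 1707 RPKM in line 3, against 2178, 2174 and 2067 RPKM in lines 7, 5 and 13. The 12 higher genes were Col10a1, Mgp, Efemp1, Cxcl12, Mmp13, Etv1, Lyz2, Klk1, Plce1, C3ar1, Gda and Gpm6b. Gda passed the read filter only through line 3, with 33 reads, against 17, 21 and 14 reads in lines 7, 5 and 13. The reverse set, high in ESC, held 311 genes, of which 15 were lower (4.82%, against 9.15%) and 10 were higher (3.22%, against 1.96%), with a median of 0.13. Of the 1277 lower genes, 55.4% had a MEF level above lines 7, 5 and 13, against 40.5% of all genes, and 68.3% had an ESC level below those lines, against 44.4%. The lower genes were picked with lines 7, 5 and 13 on the high side. Another library can fall below those lines for that reason alone, so the excess for ESC is no separate finding.

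Markers of macrophages, which MEF preparations can contain, were not low in line 3. Of 15 genes in that list, 6 had enough reads, 0 were lower and 3 were higher (50%, against 1.96% of all genes). The difference of the macrophage list depended on the line: its median was 0.52 and 0.47 against lines 7 and 13 but -0.13 against line 5. Ctss was level with line 5. The summed level was 50.2 RPKM in line 3, against 35.5, 36.7 and 33.6 RPKM in lines 7, 5 and 13. Lyz2, lysozyme, had 6.27 RPKM, against 4.25, 3.82 and 3.8 RPKM, Laptm5, a lysosomal protein, had 27.2 RPKM, against 19, 13.4 and 15.1 RPKM, and Ctss, cathepsin S, had 1.33 RPKM, against 0.721, 1.33 and 0.623 RPKM. Of the defining markers, Ptprc had 5 reads in line 3, against 0, 0 and 2, Adgre1 had 12 reads, against 6, 8 and 4, and Csf1r had 32 reads, against 15, 44 and 26. The summed level was 979 RPKM in MEF and 91.7 RPKM in ESC. Of 12 endothelial genes, 7 had enough reads and 2 were lower (28.6%, against 9.15% of all genes). Cdh5 had 0 reads in line 3, against 2, 0 and 2 reads. The part of these cell types in the differences of line 3 was not tested.

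Few genes were far higher in line 3. The largest was Nnt, the mitochondrial transhydrogenase that makes NADPH, which lay below the level limit for naming and was chosen after its values were seen. It had 70 reads in line 3, against 2, 10 and 8 reads in lines 7, 5 and 13, and 807 reads in ESC and 1037 in MEF. Nnt passed the filter of a mean of 20 reads only through line 3, so its place among the higher genes rests on that library. The levels were 0.473 RPKM in line 3, against 0.0141, 0.0674 and 0.055 RPKM, and 5.39 RPKM in ESC and 6.92 RPKM in MEF, with a 95% counting interval of 6.2 to 17.9 for the ratio of line 3 to the other lines. Nnt is known to carry an inactivating deletion in C57BL/6J mice. All 4 iPSC lines were far below ESC and MEF, line 3 the least so, and the source of these reads was not tested.

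Most of the leading higher genes were at low levels. Etv1, an ETS factor, had 1.33 RPKM in line 3, against 0.455, 0.226 and 0.684 RPKM, and Tac2, a neuropeptide gene, had 2.62 RPKM, against 1.47, 0.29 and 1.35 RPKM. Both were uneven over the other lines, with an SD of 0.79 and 1.18 on the log2 scale. Sh2d4b, an adaptor gene, had 2.88 RPKM, against 1.25, 0.863 and 1.02 RPKM, and Plekhb1, a membrane protein gene, had 2.95 RPKM, against 1.14, 1.3 and 1.28 RPKM, with SDs of 0.28 and 0.08. Cxcr4, the receptor for Cxcl12, had 1.11 RPKM, against 0.207, 0.753 and 0.404 RPKM. Tgm1, a cross-linking enzyme of skin, and Krt42, a keratin gene, had 3.91 and 3.18 RPKM, against 1.89, 1.91 and 1.03 RPKM for Tgm1 and 1.98, 1.63 and 0.809 RPKM for Krt42. Celsr3, a cadherin of neurons, had 1.42 RPKM, against 0.751, 0.559 and 0.605 RPKM, and Sult5a1, a sulfotransferase gene, had 1.44 RPKM, against 0.293, 0.809 and 0.698 RPKM. Sult5a1 also passed the read filter only through line 3, with 46 reads, against 9, 26 and 22 reads in lines 7, 5 and 13. Trh, a hormone gene, had 12.7 RPKM in line 3 and 6.98, 1.73 and 12.2 RPKM in lines 7, 5 and 13, with line 13 close to line 3 and line 5 far below both. Of the 274 higher genes, 256 were in none of the lists, and of the 1277 lower genes 1067 were in none.

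**Figure D4:**
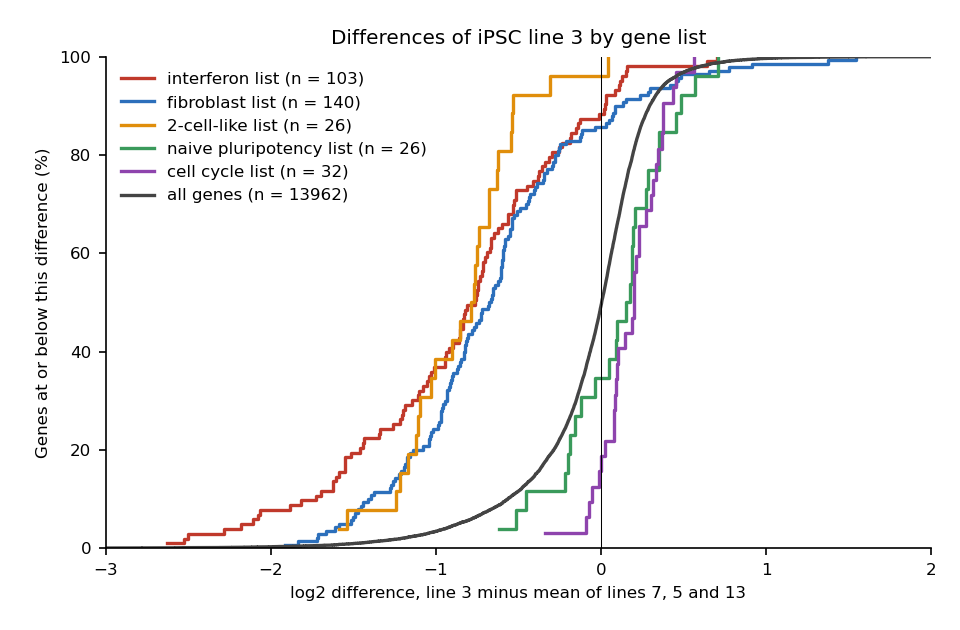
Cumulative share of genes (percent) by log2 difference of line 3 from the mean of lines 7, 5 and 13, for 5 gene lists and all 13962 tested genes. The interferon, fibroblast and 2-cell-like curves lie to the left of all genes, with medians of -0.76, -0.67 and -0.78, and the naive pluripotency and cell cycle curves lie slightly to the right, with 0.17 and 0.20.

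Genes of the pluripotent state were not low in line 3. Of 26 naive pluripotency genes, 0 were lower and 1 was higher (3.85%, against 1.96% of all genes), with a median of 0.17. The higher one was Lin28a, an RNA-binding protein that blocks let-7 microRNAs, at 40 RPKM in line 3, against 30.6, 13.5 and 35.6 RPKM, with line 5 the lowest. Tfcp2l1, a naive factor, had 130.2 RPKM, against 103, 78.3 and 84.3 RPKM, and Dppa3, a maternal factor, had 18.8 RPKM, against 22.6, 76.7 and 13.9 RPKM, and neither was called. Of 9 primed genes, 1 was lower (11.1%, against 9.15% of all genes). It was Sfrp2, a secreted WNT-binding protein that fibroblasts also make. Sfrp2 had 0.905 RPKM in line 3, against 1.06, 1.68 and 1.8 RPKM, and 5.02 RPKM in MEF. Otx2 and Pou3f1 of that list had 0.449 and 2.27 RPKM, against 0.242, 0.385 and 0.362 RPKM for Otx2 and 2.82, 3.17 and 3.21 RPKM for Pou3f1.

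Genes of the 2-cell-like state, which a small share of mouse pluripotent cells enter for a time, were low in line 3 and in line 5. Of 26 tested, 17 were lower in line 3 (65.4%, against 9.15% of all genes), with a median of -0.78. The median was -1.12 against line 7, -0.32 against line 5 and -1.13 against line 13. The summed level was 161 RPKM in line 3, against 255, 173 and 272 RPKM in lines 7, 5 and 13, and 62.8 RPKM in ESC. The deubiquitinase genes Usp17le, Usp17lb and Usp17ld had 2.63, 1.34 and 0.796 RPKM in line 3, against 9.07, 4.61 and 12.2 RPKM for Usp17le, 4.05, 2.79 and 5.6 RPKM for Usp17lb and 2.23, 0.991 and 3.28 RPKM for Usp17ld. ESC were below line 3 for all 26 genes, and by summed level line 3 lay between ESC and the other lines. Many of these genes are near-identical copies, and reads could be split among them.

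Germline genes were lower for 10 of 29 members (34.5%, against 9.15% of all genes), with a median of -0.41, but line 5 was high in them. Rhox2a, an X-linked homeobox gene, had 0.647 RPKM in line 3, against 2.02, 3.09 and 2.45 RPKM. Slc25a31, the germ cell ADP carrier, had 1.49 RPKM, against 3.67, 4.26 and 2.77 RPKM, and Xlr3a had 12.4 RPKM, against 20.9, 36.9 and 20.3 RPKM. Deviations from the mean of the 4 lines had a median of -0.31 in line 3, 0.02 in line 7, 0.53 in line 5 and -0.15 in line 13. Line 5 therefore stood farther from the mean than line 3.

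Genes of the Y chromosome were split. Of 7 tested, 3 were lower in line 3 (42.9%, against 9.15% of all genes): Zfy2, Kdm5d and Usp9y. Kdm5d, a histone demethylase, had 1.62 RPKM, against 3.17, 2.45 and 3.23 RPKM, while Zfy2 and Usp9y were under 1 RPKM in all 4 lines. The abundant Eif2s3y, a translation factor gene, had 26.3 RPKM in line 3, against 33.5, 18.6 and 28.7 RPKM. Line 5 was lower than line 3 for Eif2s3y, and the median deviation from the mean of the 4 lines was -0.50 in line 3, 0.37 in line 7, -0.47 in line 5 and 0.34 in line 13. Xist, the RNA that silences an X chromosome, had 4.17 RPKM, against 6.64, 6.95 and 5.39 RPKM. Over chromosomes, medians ran from -0.13 to 0.05 apart from Y, and chromosome 11, at -0.13, stood at 0.01 without line 5. The X chromosome had the highest share of lower genes apart from Y, 13.7%.

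Markers of early lineages had calls in both directions, on small lists. Of 13 endoderm genes, 4 were lower (30.8%, against 9.15% of all genes) and 3 were higher (23.1%, against 1.96%). Sox17 had 0.187 RPKM in line 3, against 0.473, 0.354 and 0.425 RPKM, and Col4a1, a basement membrane collagen, had 35.5 RPKM, against 61.6, 70.6 and 54.8 RPKM. Of 9 mesoderm genes, 1 was lower, Hand1 at 0.42 RPKM, against 0.457, 1.41 and 0.776 RPKM, and 2 were higher, Eomes and Gata2. Of 10 neuroectoderm genes, 2 were lower, Zic1 at 0.13 RPKM, against 0.552, 0.474 and 0.297 RPKM, and the intermediate filament gene Nes at 5.02 RPKM, against 7.76, 10.3 and 7.21 RPKM. Of 12 trophoblast genes, 3 were lower, among them the keratin gene Krt19 at 1.99 RPKM, against 4.65, 8.37 and 3.49 RPKM, and 1 was higher. The 4 lists had medians of -0.13, 0.20, -0.30 and 0.00 in that order. The shares of lower genes in the mesoderm, neuroectoderm and trophoblast lists were 11.1%, 20% and 25%, and those of higher genes were 22.2%, 0% and 8.33%.

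Imprinted and p53 genes had shares of lower genes not far from that of all genes. Of 26 imprinted genes, 4 were lower (15.4%, against 9.15% of all genes) and 1 was higher (3.85%, against 1.96%), with a median of -0.15 that was 0.05 against line 7 alone. H19, a maternally expressed RNA that is abundant in MEF at 1201 RPKM, had 48.5 RPKM in line 3, against 80.1, 127 and 92.2 RPKM, and its neighbour Igf2 had 30.4 RPKM, against 48.1, 57.8 and 50.8 RPKM, with 473 RPKM in MEF. Airn had 0.647 RPKM, against 1.4, 1.29 and 1.47 RPKM. Of 20 genes of the p53 and senescence list, 3 were lower (15%, against 9.15%). Cdkn2b, a cell cycle inhibitor, had 16 RPKM, against 34.6, 34.9 and 29.7 RPKM, Pmaip1, a cell death gene, had 12.1 RPKM, against 24.9, 28.5 and 21.4 RPKM, and Fas had 3.66 RPKM, against 5.92, 6.34 and 4.73 RPKM.

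Housekeeping programmes differed little. Of 32 cell cycle genes, 25 hypoxia and glycolysis genes and 46 oxidative phosphorylation genes, 0 were called in either direction, and the medians were 0.20, 0.04 and 0.11. Of all genes, 9.15% were lower and 1.96% higher, but with at least 1000 reads only 3.70% and 0.178%. Differences were below 0 for 6 of 32 cell cycle, 9 of 25 hypoxia and glycolysis and 6 of 46 oxidative phosphorylation genes. For all genes it was 6878 of 13962. The ribonucleotide reductase gene Rrm2 and the replication helicase genes Mcm5 and Mcm3 were the cell cycle genes farthest from 0. Rrm2 had 112 RPKM in line 3, against 81.9, 65.9 and 81.4 RPKM, and Mcm5 had 120.4 RPKM, against 94.4, 77.4 and 92.5 RPKM. Of 25 fatty acid oxidation genes, the pathway that uses palmitoylcarnitine, 1 was lower (4%, against 9.15% of all genes). It was Acsl5, which activates fatty acids, at 2.92 RPKM, against 5.33, 5.47 and 4.57 RPKM. Cpt1a, the enzyme that makes palmitoylcarnitine, had 40.8 RPKM, against 35.8, 37.7 and 38.6 RPKM. The 20 cholesterol genes had a median of -0.05. Of 17 endoplasmic reticulum stress genes, 1 was lower (5.88%, against 9.15% of all genes). It was Ddit3, the stress factor CHOP, at 38.4 RPKM, against 65.9, 81.9 and 46 RPKM.

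**Figure D5:**
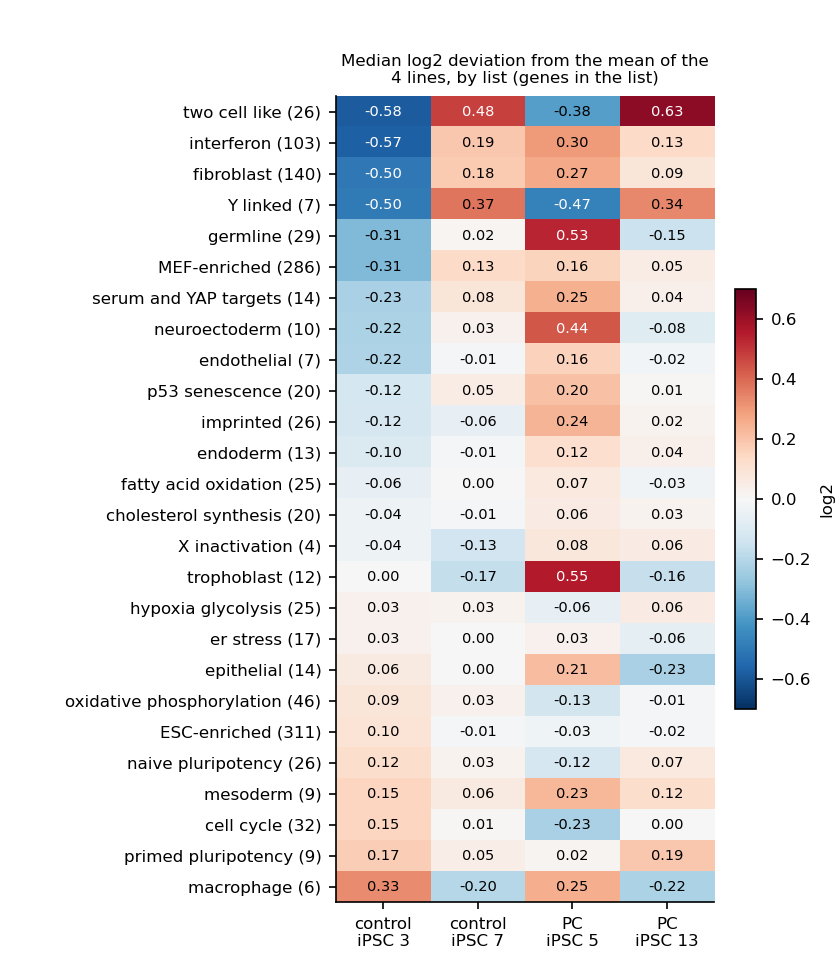
Median log2 deviation of each gene list (rows, with the number of genes tested) from the mean of the 4 lines, for lines 3, 7, 5 and 13. Line 3 has -0.57 for interferon and -0.50 for fibroblast genes, where the other lines lie between 0.09 and 0.30, while for the 2-cell-like and Y-linked lists line 5 is low with line 3.

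Set beside one another, the lists differed in which lines stood apart. In the interferon list the median deviation from the mean of the 4 lines was -0.57 in line 3, 0.19 in line 7, 0.30 in line 5 and 0.13 in line 13. In the fibroblast list it was -0.50, 0.18, 0.27 and 0.09 in the same order. In the 2-cell-like list it was -0.58, 0.48, -0.38 and 0.63, so lines 3 and 5 stood on one side and lines 7 and 13 on the other. The mean of the 4 lines holds line 3, so a low line 3 in itself pushes the other lines above that mean. Their signs are therefore no separate result. Set directly against line 7, which carries the same control label, line 3 had medians of -0.74, -0.67 and -1.12 in the same order of lists.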

How the data were processed

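Counts of uniquely assigned reads per gene and RPKM values were deposited by the authors for 6 libraries, and per the file headers RPKM is scaled by gene length and the library total. The counts summed to the header total in all 6 libraries. RPKM recomputed from count, length and total matched the deposited RPKM (relative tolerance 1e-06) for all but 93 genes, whose RPKM rests on another length than listed. The submitters' processing notes list CASAVA 1.8.2 and mm10 and state no role for either. Which aligner, counter and annotation were used, and whether strand was, is not given in the sources used here, so reads of antisense or near-identical genes cannot be assigned with certainty. Per the labels' protocols, libraries were made from total RNA with an mRNA kit. Another 6 columns, which hold coverage, were not used.

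Library sizes ran from 26.51 to 27.99 M reads. Counts of the 4 iPSC lines were scaled with TMM in edgeR 4.0.16 (R 4.3.3) and put on a log2 scale with a prior count of 2. Of 19330 genes, 41 of them without a symbol, the 13962 with a mean of at least 20 reads over the 4 lines were described. The log2 difference is line 3 minus the mean of lines 7, 5 and 13, and its error is the SD of those lines (n = 3). No test was run, since line 3 is 1 library chosen from this contrast. The planned descriptions were kept, and the calculation was tested on simulated data. Levels are deposited RPKM, and positions come from RefSeq on GRCm38.p6, which placed 19239 genes by gene ID. Comparisons with ESC and MEF used log2 of RPKM with 0.1 added. Counting intervals are exact binomial intervals at 95%.

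The line, the 24 gene lists (708 genes, 695 in the table, 634 tested) and the rules were chosen with earlier results of these data known. Genes were named by rule: the 12 lower and 12 higher genes of largest difference with at least 1 RPKM in the higher libraries, predicted genes passed over, then the 4 markers Rsad2, Ifit1, Lum and Tgfbi, the 4 most abundant members of each interferon or fibroblast role, the 3 members of each other list farthest from 0, and genes behind counts of 5 or fewer. Names outside that rule were Adar, Cnn1, Cpt1a, Eif2s3y, Pdgfra, Srf, Hspb7 and Nnt and the identity markers, chosen after their values were seen. Some genes the rule names are not reported here. Alternatives were other scalings, prior counts, read filters and fold limits, single or left-out comparison lines, genes outside chromosome 11, and a stricter MEF set.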

Additional observations from a re-analysis of the deposited data

How the results depend on the processing

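No paired analysis was possible because the control and PC lines carry different replicate numbers, and ESC and MEF have 1 library each. Under every alternative run, no called difference of a named gene changed sign, nor did the medians of the interferon, fibroblast and MEF-enriched genes. Of 1047 values for 108 named and called genes, 1028 moved by less than the spread between lines 7, 5 and 13 and 19 moved by more. For called genes this was largely fixed in advance, so it is no separate support. A called gene lies outside the range of lines 7, 5 and 13, so leaving out any of them cannot change its sign. The read filters and the removal of chromosome 11 leave the value of a remaining gene unchanged. With no filter on low counts, 1977 genes were lower, 985 were higher, and the median of the MEF-enriched genes was -0.33. With a mean of at least 100 reads, 751 of 11584 genes were lower (6.48%, against 9.15% in the main run) and 102 were higher (0.881%, against 1.96%). That filter leaves out the shallow genes, which were called more often. At 2-fold or more, 472 were lower and 47 higher. With MEF at least 100 times ESC, the median of the MEF-enriched genes was -0.49. Leaving out line 7, 5 or 13 in turn gave 1209 to 1476 lower and 316 to 394 higher genes, and medians of -0.81 to -0.74 for the interferon list, -0.73 to -0.62 for the fibroblast list and -0.44 to -0.37 for the MEF-enriched genes. Against line 7 alone, the control label that line 3 shares, 1343 were lower and 329 higher, with medians of -0.74, -0.67 and -0.43 in the same order of lists. Medians of other lists depended on the line compared: against line 7 alone they were 0.09 for neuroectoderm, 0.05 for imprinted and -0.13 for mesoderm genes, against line 5 alone -0.13 for macrophage, -0.18 for epithelial and 0.08 for Y-linked genes, and against line 13 alone 0.34 for trophoblast genes, each of the opposite sign to the median over the 3 lines. Library totals or DESeq2 size factors in place of TMM moved the median of all genes by less than 0.01. Counts of shallow genes are the least certain: the spread between lines 7, 5 and 13 was widest below 100 reads. Line 3 has no replicate, so a difference of the line cannot be told apart from one of its library or culture.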
